A study of Rattus norvegicus with 8 samples.

Results

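The annexins were followed in rat enamel organs through every probe of the array whose symbol was Anxa followed by a number, including symbols marked as predicted. The rule gave 11 of the 22523 probes, for 10 genes: Anxa1, Anxa2, Anxa3, Anxa4, Anxa5, Anxa6, Anxa7, Anxa8, Anxa11 with 2 probes, and Anxa13. The samples were enamel organs of the secretory and of the maturation stage, dissected from the mandibular incisors of 4 untreated male Wistar Hannover rats (Wistar in the labels) at an age of 4 weeks. Each rat gave 1 sample of either stage, measured as total RNA on RatRef-12 v1 BeadChip arrays. In this way 4 secretory-stage arrays (S1 to S4) were compared with 4 maturation-stage arrays (M1 to M4). Equal replicate numbers were taken to mark the same rat.

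Annexins are proteins that bind acidic phospholipids, such as phosphatidylserine, when calcium rises. They gather at the inner face of membranes, where they take part in membrane repair, vesicle traffic and the linking of membranes to actin, and some form complexes with S100 proteins. The enamel organ is the epithelium that builds enamel. Its ameloblasts first secrete a protein matrix and later move calcium into the hardening enamel while the matrix is broken down and taken up.

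The stage labels were checked with 4 genes. Klk4, the protease of the maturation stage, was higher by 7.57 on the log2 scale in its more changed probe, and Slc24a4, a calcium exchanger of maturation ameloblasts, was higher by 5.07. Enam, which encodes the matrix protein enamelin, was lower by a log2 change of -4.98, with M1 at 9.08 and M4 at 8.22 against 5.17 in M2 and 5.53 in M3. Amelx, which encodes amelogenin, differed by -0.53 (limma, adjusted p = 0.0555). Summed over all probes, the deposited signal was 13355073 to 16122665 per maturation-stage array and 11881691 to 12046793 per secretory-stage array. The tissue is a mixture of cells, so more cells of a type and more RNA per cell cannot be told apart.

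Promoter sequence is shown first for Anxa1 and Anxa8, the members with the largest differences between the stages. Of the 10 genes, 8 were found in a RefSeq promoter table of the GRCr8 assembly, and Anxa6 and Anxa13 were not. In all, 4 short motifs were searched on both strands of the 250 bases before each start, namely TATAAA for the TATA box, CCAAT for the CCAAT box, GGGCGG for the GC box, and TGANTCA for the site of AP-1 factors. The stretches below read 5′ to 3′ along the gene, with the motifs found in capitals. That of Anxa1 is 30 bases around its TATAAA (chr1:227303761-227303790, minus strand), that of Anxa8 is the part of its window outside the annotated gene, 130 bases (chr16:9403137-9403266, plus strand), and that of Anxa2, a member that did not pass the test after quantile normalization, is the whole window (chr8:78986002-78986251, plus strand).
Anxa1: cagttcatatccTATAAAatcaggagtcca
Anxa8: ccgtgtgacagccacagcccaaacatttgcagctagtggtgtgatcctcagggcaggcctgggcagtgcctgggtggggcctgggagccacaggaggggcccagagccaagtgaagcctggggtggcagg
Anxa2: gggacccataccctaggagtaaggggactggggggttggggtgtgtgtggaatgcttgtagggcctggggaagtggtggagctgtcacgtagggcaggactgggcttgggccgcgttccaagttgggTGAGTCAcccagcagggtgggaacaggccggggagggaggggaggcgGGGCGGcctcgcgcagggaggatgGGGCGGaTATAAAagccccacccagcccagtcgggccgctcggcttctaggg
The start is that of the promoter table. Of the 8 windows, that of Anxa2 alone lies wholly before the annotated gene. Those of Anxa1 and Anxa7 lie wholly inside it, that of Anxa5 all but 11 bases, and those of Anxa3, Anxa4, Anxa8 and Anxa11 in part, so bases before these starts, motifs among them, can belong to longer transcripts. TATAAA was found 46 bases before the start in Anxa1 and 45 bases before it in Anxa2, and in 12.9% of all 33469 promoters. GGGCGG was found in the promoters of Anxa2, Anxa3, Anxa4, Anxa5 and Anxa11 and in 30.5% of all promoters, while those of Anxa1, Anxa7 and Anxa8 did not hold these letters. CCAAT was found in Anxa4 and Anxa7 (34.0% of all promoters) and TGANTCA in Anxa2 (6.34%). Anxa8 held none of the 4 motifs in its 250 bases. Anxa1 and Anxa8 each had 3 CpG dinucleotides in the window, below the median of 5.0 over all promoters, and 28.6% of all promoters had fewer. The other 6 annexin promoters had between 7 in Anxa7 and 24 in Anxa11.

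Of the 11 annexin probes, 2, those of Anxa1 and Anxa8, were higher in the maturation stage by at least 1.8-fold with an adjusted p below 0.05, and none was lower by that much. Over all 22523 probes, 7.75% were called by this rule, made up of 4.60% of all probes that were higher and 3.15% of all probes that were lower in the maturation stage. Among the 9156 probes detected on all 8 arrays the share was 15.1%, with 8.73% higher, and 2 of the 9 annexin probes detected on all 8 were called. Without the fold threshold, 4 annexin probes had an adjusted p below 0.05, 2 higher and 2 lower, where 26.9% of all probes and 54.0% of the probes detected on all arrays did. The stages did not overlap for these same 4 probes, and they did not overlap for 27.7% of all probes and 53.2% of the probes detected on all arrays. The median log2 fold change of the 9 detected annexin probes was 0.04, beside -0.07 for the probes detected on all 8 arrays and -0.01 for all probes. Values are normalized log2 signals with the SD over the 4 rats, and tests are limma's moderated test with Benjamini-Hochberg adjustment over all probes. Brightness depends on the probe as well as on the transcript, so signals were compared between stages for 1 probe at a time and the annexins were not ranked against each other.

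**Figure D1:**
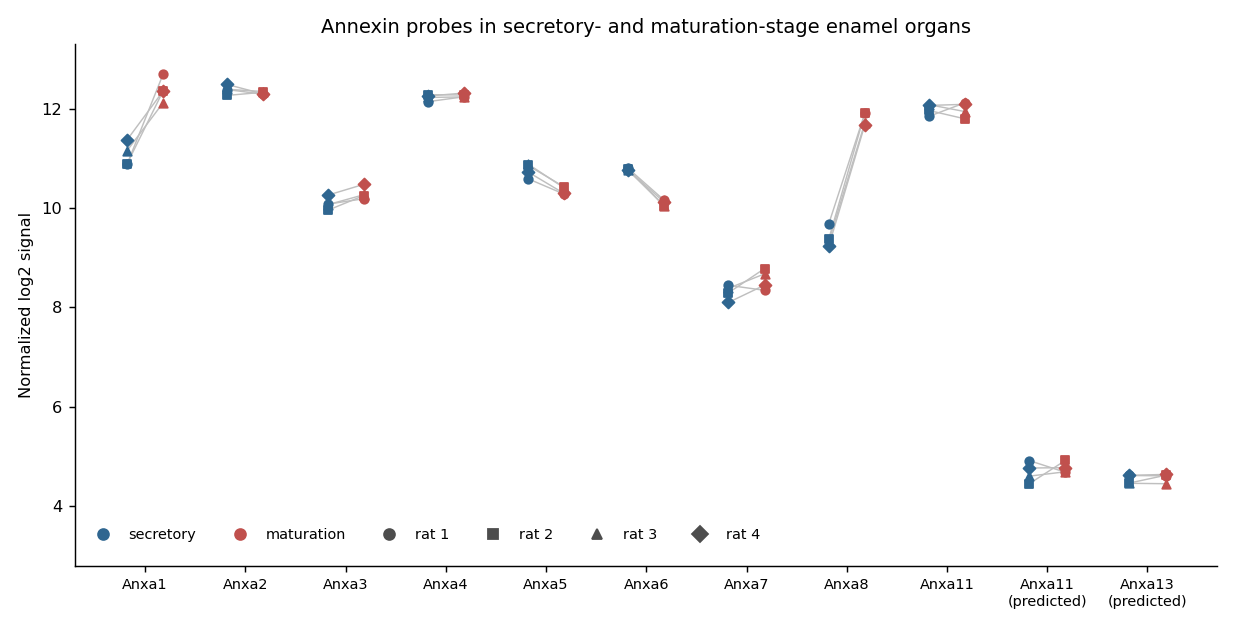
Normalized log2 signal of the 11 annexin probes on each of the 8 arrays, with secretory-stage samples in blue, maturation-stage samples in red, marker shapes for the rats and grey lines joining the samples of a rat. Anxa8 and Anxa1 were higher in every maturation-stage sample, Anxa5 and Anxa6 were lower in every one, and the predicted Anxa11 and Anxa13 probes lay between 4.45 and 4.92 on all arrays, where they were not detected.

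Anxa8, which binds phospholipids and is known from epithelia such as skin, showed the largest difference of the family. Its deposited signal (probe ILMN_1360946, chromosome 16) was 747 in S1, 642 in S2, 623 in S3 and 549 in S4, and 4824 in M1, 4459 in M2, 3524 in M3 and 3918 in M4. After normalization these became 9.68, 9.37, 9.32 and 9.23 in S1 to S4 and 11.90, 11.91, 11.71 and 11.67 in M1 to M4. The stages lay 1.99 apart at their closest, so every maturation-stage sample was well above every secretory-stage sample. The means were 9.40 ± 0.194 in the secretory stage and 11.80 ± 0.124 in the maturation stage (SD, n = 4 each). The log2 fold change was 2.40 with a standard error of 0.104 and a 95% interval from 2.16 to 2.63, or 5.27-fold (limma, adjusted p = 2.95e-07). Within rats, the difference was between 2.23 and 2.54, so all 4 rats showed a rise of similar size.

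Anxa1, also known as lipocortin, is an annexin of epithelia and myeloid cells that limits inflammation through formyl peptide receptors. The probe ILMN_1353924 on chromosome 1 had deposited signals of 1632, 1711, 2062 and 2268 in S1 to S4 and of 8246, 5993, 4535 and 6258 in M1 to M4. Its normalized values were 10.88, 10.89, 11.15 and 11.37 in S1 to S4 and 12.69, 12.36, 12.12 and 12.35 in M1 to M4. The highest sample was M1 and the lowest S1, both of rat 1, and the stages lay 0.75 apart at their closest. The mean was 11.07 ± 0.237 in the secretory stage and 12.38 ± 0.237 in the maturation stage (SD, n = 4 each), a log2 fold change of 1.31 with a standard error of 0.143, a 95% interval from 0.99 to 1.63 and a fold of 2.48 (limma, adjusted p = 9.55e-05). The size of the difference varied between rats, from 1.82 in rat 1 and 1.47 in rat 2 to 0.97 in rat 3 and 0.98 in rat 4. Without M1 the log2 fold change was 1.20, the lowest value with any array left out.

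Several markers of white blood cells were higher in the maturation stage, as were Anxa1 and Anxa8. Over all probes 4.60%, and over the probes detected on all 8 arrays 8.73%, were called higher. Of 14 probes for macrophage and leukocyte genes, 8 were called higher in the maturation stage and none lower, among them Cd68, a lysosomal protein of macrophages, with a log2 fold change of 2.19, and their summed linear level was 10218 to 13119 per maturation-stage array and 3871 to 4610 per secretory-stage array. Of 7 neutrophil probes, S100a8 alone was called, and S100a9, Elane and Csf3r, which neutrophils also express, were not detected on any array. Endothelial markers had 2 of 8 probes called higher (summed level 6816 to 8590 against 5041 to 6277), and fibroblast markers 1 of 9 (83629 to 87373 against 67608 to 78560), the latter a share near that of the detected probes. In the epithelial list, Cldn1 and Krt8 were called higher and Cdh1 lower. The part of these cells in the difference of either annexin was not tested.

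Anxa6, the annexin with a duplicated annexin core, which binds membranes and takes part in endocytosis and cholesterol handling, had the smallest spread in the secretory stage. Its normalized values (chromosome 10) were 10.79, 10.78, 10.75 and 10.76 in S1 to S4 and 10.15, 10.03, 10.05 and 10.11 in M1 to M4. All maturation-stage values lay below all secretory-stage values, by at least 0.60. The log2 fold change was -0.69 with a standard error of 0.0529 and a 95% interval from -0.81 to -0.57, which is 1.61-fold lower and short of the 1.8-fold threshold (limma, adjusted p = 9.76e-06). The difference was -0.39 with the arrays scaled to a common median (adjusted p = 0.00160) and -0.19 with no normalization between arrays (adjusted p = 0.152).

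Anxa5, which covers exposed phosphatidylserine and is used to stain dying cells, had a smaller difference in the same direction. Its normalized values (chromosome 2) were 10.59, 10.86, 10.88 and 10.72 in S1 to S4 and 10.28, 10.42, 10.40 and 10.29 in M1 to M4. The stages did not overlap, with 0.16 between the lowest secretory-stage sample, S1, and the highest maturation-stage sample, M2. The log2 fold change was -0.41 with a standard error of 0.0784, 1.33-fold lower, after quantile normalization (limma, adjusted p = 0.00301), but -0.13 with median scaling (adjusted p = 0.233) and 0.07 with no normalization (adjusted p = 0.639), so its direction depended on how the arrays were scaled. The deposited signals of Anxa5 were 1347 to 1699 in the secretory stage and 1486 to 1702 in the maturation stage, and these overlapped.

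**Figure D2:**
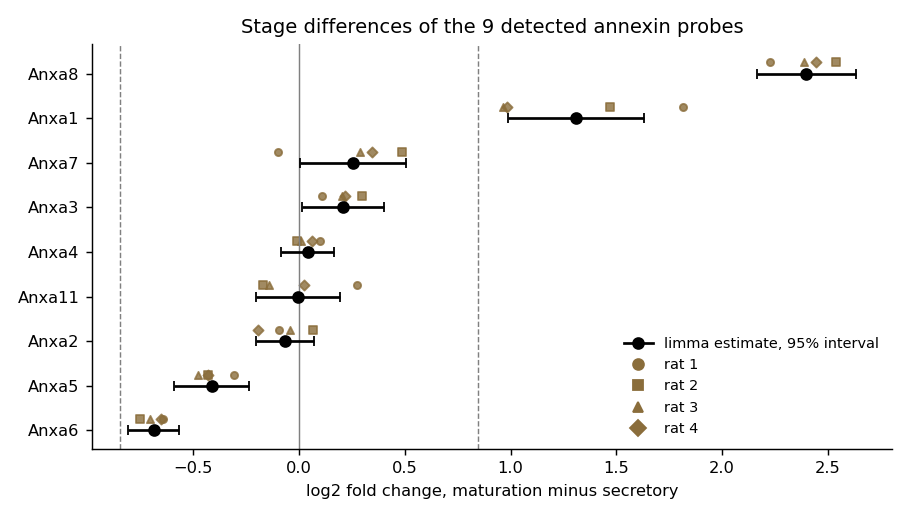
Difference between the stages (maturation minus secretory, log2) of the 9 detected annexin probes, with limma's estimate and its 95% interval in black and the 4 within-rat differences in brown. Dashed lines mark a 1.8-fold difference, which the intervals of Anxa8 (2.16 to 2.63) and Anxa1 (0.99 to 1.63) lay above in full.

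The other 5 detected probes did not pass the test. Anxa2, which pairs with S100a10 at the cell surface and binds plasminogen, had 12.38, 12.27, 12.39 and 12.49 in S1 to S4 and 12.29, 12.33, 12.34 and 12.29 in M1 to M4 (chromosome 8). The stages overlapped, and the log2 fold change was -0.07 with a 95% interval from -0.20 to 0.07 (limma, adjusted p = 0.528), turning to 0.12 with median scaling. Anxa4, a membrane-binding annexin of epithelia, lay between 12.14 and 12.31 on all 8 arrays (chromosome 4, log2 fold change 0.04, 95% interval -0.08 to 0.16, adjusted p = 0.706 by limma). These intervals hold for quantile normalization alone, since Anxa4 had 0.23 with median scaling (adjusted p = 0.0225 by limma) and 0.43 with no normalization (adjusted p = 0.00242), neither past 1.8-fold.

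Anxa11, which binds the calcium sensor Pdcd6 and is found on RNA granules and vesicles, was the member with the smallest difference after quantile normalization, though not under cyclic loess, median scaling or no normalization. Its brighter probe (ILMN_1376793, chromosome 16) had 11.84, 11.96, 12.08 and 12.06 in S1 to S4 and 12.12, 11.79, 11.94 and 12.09 in M1 to M4. The samples of the stages were interleaved, with a log2 fold change of -0.00 and a 95% interval from -0.20 to 0.19 (limma, adjusted p = 0.987), and the sign turned when single arrays were left out and to 0.19 with median scaling. A second Anxa11 probe (ILMN_1376036, marked as predicted) was not detected on any array, with deposited signals of 98.9 to 125, so the probes of this gene disagreed about its presence. The probe of Anxa13, an annexin of the intestine and kidney, was likewise not detected on any array, at signals of 99.7 to 117, and no fold is given for either. A probe outside the rule, LOC502579, which the array describes as similar to annexin A9, was not detected on any array.

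Anxa3 and Anxa7 were a little higher after quantile normalization without passing the test. Anxa3, an annexin studied in neutrophils and tumours, was 10.08, 9.95, 10.06 and 10.26 in S1 to S4 and 10.18, 10.25, 10.26 and 10.47 in M1 to M4 (chromosome 14), higher in the maturation stage in 4 of 4 rats although the stages overlapped between rats (log2 fold change 0.21, 95% interval 0.01 to 0.40, adjusted p = 0.120 by limma). Anxa7, known for membrane fusion in secretory cells, was 8.44, 8.29, 8.38 and 8.10 in S1 to S4 and 8.34, 8.78, 8.67 and 8.45 in M1 to M4 (chromosome 15), higher in 3 of 4 rats (log2 fold change 0.26, 95% interval 0.00 to 0.51, adjusted p = 0.140 by limma). Rat 1 was the exception. Anxa7 was read by 13 to 27 beads per array, the fewest of the family, and the standard error of its beads reached 7.29% of the signal, against 2.03% to 5.16% in the other detected members.

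The scaling of the arrays moved all members together. The maturation-stage arrays were brighter, so that the median log2 fold change of the probes detected on all 8 arrays was -0.07 after quantile normalization, 0.20 with median scaling and 0.40 with no normalization, and the share of called probes that were higher in the maturation stage went from 59.3% to 77.6% and 87.2%. With median scaling, Anxa3 had a log2 fold change of 0.51 (limma, adjusted p = 0.00137) and Anxa7 one of 0.61 (adjusted p = 0.00216), neither past 1.8-fold. With no normalization, Anxa3 had 0.71 (limma, adjusted p = 0.000230) and Anxa7 0.81 (adjusted p = 0.000252), again short of 1.8-fold. Under cyclic loess, Anxa3 had 0.28 (limma, adjusted p = 0.0405). Anxa1 and Anxa8 were called under each of these scalings, with 1.53 and 2.69 under median scaling. Ratios of a pair of probes within an array do not depend on a factor common to the array. The Anxa8 to Anxa6 ratio was higher in the maturation stage by 3.09 ± 0.112 (standard error) after quantile normalization and by 3.08 ± 0.113 without any, the Anxa1 to Anxa2 ratio by 1.38 ± 0.155 and 1.41 ± 0.163, and the Anxa8 to Anxa1 ratio by 1.09 ± 0.222 and 1.16 ± 0.240. On these ratios the stages did not overlap, so these members differed unequally between the stages on either scale. The Anxa5 to Anxa6 ratio, by contrast, overlapped between the stages, at a difference of 0.27 ± 0.0988 after quantile normalization.

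**Figure D3:**
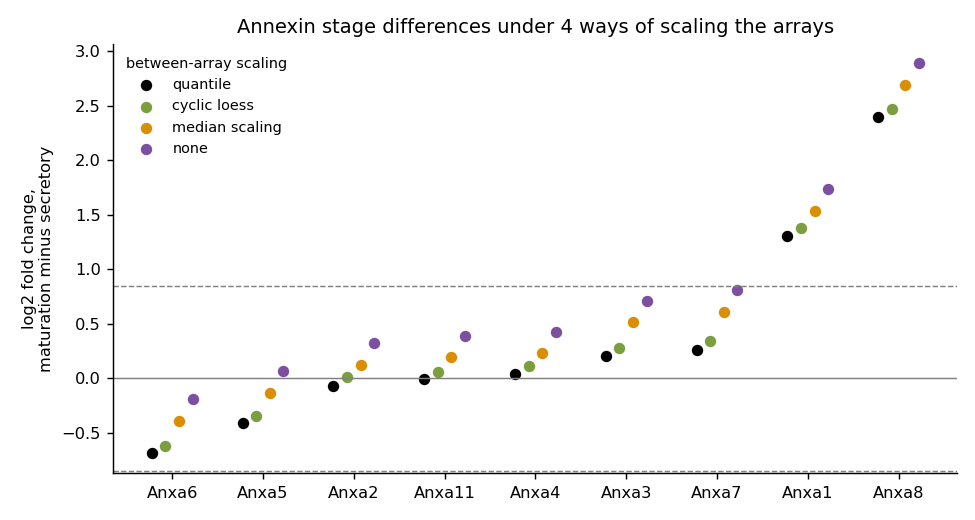
Log2 fold change (maturation minus secretory) of the 9 detected annexin probes under quantile normalization, cyclic loess, median scaling and no normalization between arrays, with dashed lines at 1.8-fold. Every member moved upward from the first to the last of these, Anxa8 from 2.40 to 2.89 and Anxa1 from 1.31 to 1.73, while Anxa5 went from -0.41 to 0.07.

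The genes that work with annexins were taken from 6 lists of 72 genes, of which 62 had 69 probes on the array and 52 probes were detected in at least 1 stage. Of the 69 probes, 10 were called higher and 2 lower in the maturation stage, where 7.75% of all probes and 15.1% of the probes detected on all arrays were called. The count of 12 was 7 without background correction and 18 with no normalization between arrays. In the list of S100 proteins, small calcium-binding partners of annexins, 4 of 8 probes were called higher and none lower, and the median log2 fold change of the list was 0.98. Without the fold threshold, 6 were higher and 1 lower with an adjusted p below 0.05, where 26.9% of all probes and 54.0% of the probes detected on all arrays passed. S100a4 was 9.14, 9.30, 8.98 and 9.31 in S1 to S4 and 12.01, 11.88, 11.74 and 11.65 in M1 to M4, a log2 fold change of 2.64 ± 0.102 (standard error; limma, adjusted p = 1.46e-07), with no overlap. S100a6, a binding partner reported for several annexins, had a log2 fold change of 2.05 ± 0.0937 and also no overlap. S100a8, carried by neutrophils and stressed epithelia, had one of 1.94 ± 0.323, and its within-rat differences ranged widely, from 0.86 to 3.22. S100b, which was detected on 1 secretory-stage array, had a fitted value of 1.20.

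The known binding partners of annexins could be followed only in part. No probe was matched to S100a10, the partner of Anxa2. S100a11, a partner of Anxa1, was 13.82, 13.65, 13.77 and 13.78 in S1 to S4 and 14.47, 14.44, 14.38 and 14.42 in M1 to M4. The stages did not overlap, and the log2 fold change was 0.68 ± 0.0580 (standard error, with adjusted p = 1.97e-05 by limma), 1.60-fold and under the threshold. Other probes of the array are described as similar to S100a11, and its value is uncertain to the extent that they share transcripts. S100a1 was 1.72-fold lower at a log2 change of -0.78, again short of the threshold. Pdcd6, a partner of Anxa11, differed by 0.13 (limma, adjusted p = 0.185).

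In the list of formyl peptide receptors and phospholipases A2, where Anxa1 acts as ligand and as inhibitor, 1 of 6 probes was called, a share near the 15.1% of the probes detected on all arrays. Pla2g4a, the cytosolic phospholipase A2 that releases arachidonic acid, was 6.93, 7.04, 7.60 and 7.38 in S1 to S4 and 8.46, 8.38, 8.52 and 8.59 in M1 to M4, a log2 fold change of 1.25 ± 0.138 (standard error; limma, adjusted p = 9.87e-05). Of the receptor genes, Fpr1 was detected on 1 secretory-stage array and Fpr3 and Fpr-rs3 on none, and no probe was matched to Fpr2, a main receptor of Anxa1, Fpr-rs4 or Fpr-rs6.

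In the plasminogen list, which surrounds Anxa2 as a cell-surface docking protein, 3 of 10 probes were called, all higher, where 4.60% of all probes and 8.73% of the probes detected on all arrays were called higher. Plat, the tissue-type plasminogen activator, was 8.32, 8.50, 8.79 and 8.50 in S1 to S4 and 10.19, 10.02, 10.04 and 10.19 in M1 to M4, with a log2 fold change of 1.58 ± 0.0981 (standard error; limma, adjusted p = 2.45e-06). Plau, the urokinase-type activator, had a fitted value of 1.82 and was detected on 1 secretory-stage array, and Serpine2, an inhibitor of both proteases, had a log2 fold change of 1.03. Plg, the gene of plasminogen itself, was not detected on any array, and Plgrkt, a plasminogen receptor, was 1.34-fold lower (limma, adjusted p = 0.00982), which missed the fold threshold.

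**Figure D4:**
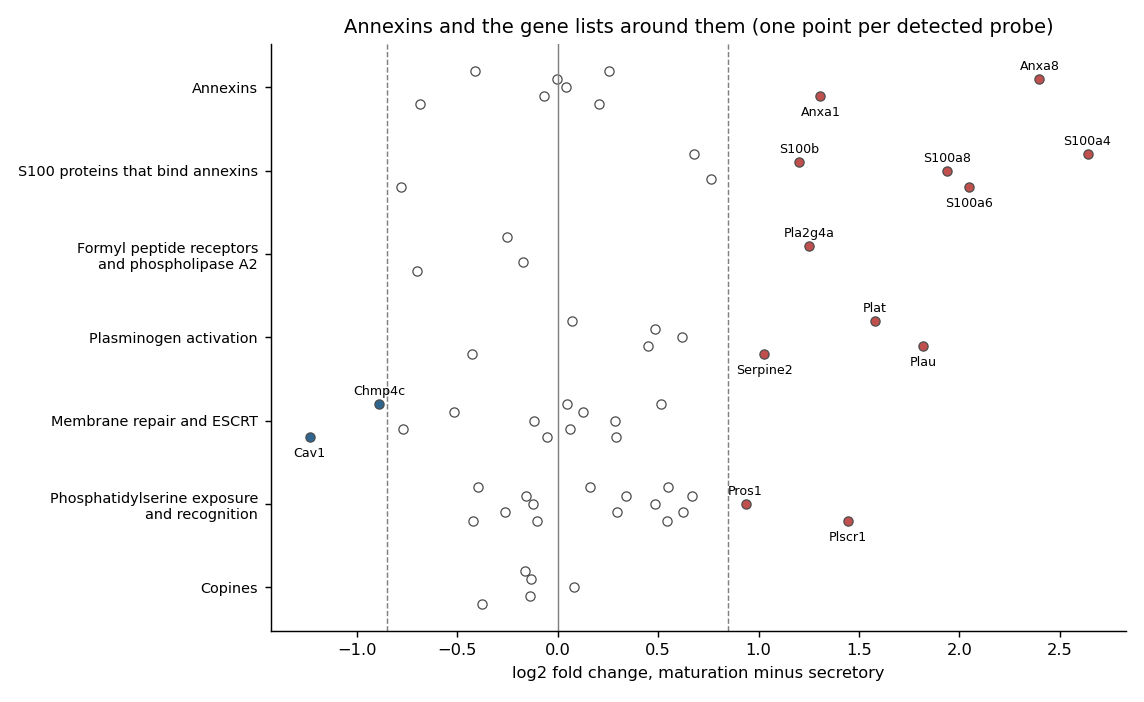
Log2 fold change (maturation minus secretory) of each detected probe of the annexins and of the 6 lists around them, with called probes filled in red (higher) or blue (lower) and named, and dashed lines at 1.8-fold. The called probes of the S100 and plasminogen lists lay on the higher side, from Serpine2 at 1.03 to S100a4 at 2.64, and the called probes of the membrane repair list on the lower side, with Cav1 at -1.24 and Chmp4c at -0.89.

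Membrane repair, the process in which annexins plug a torn plasma membrane before the ESCRT proteins shed it, held 2 called probes of 16, both lower. Over all probes 7.75% were called, with 3.15% lower. Among the probes detected on all arrays 15.1% were called, a share near that of the list. Without the fold threshold the list was mixed, with 3 probes higher and 4 lower at an adjusted p below 0.05. Of all probes 26.9% passed, and of the probes detected on all arrays 54.0%. In the list, 12 of the 16 were detected in at least 1 stage. Cav1, the coat protein of caveolae, was 8.38, 8.37, 8.31 and 8.48 in S1 to S4 and 7.10, 7.36, 7.29 and 6.87 in M1 to M4, a log2 fold change of -1.24 ± 0.105 (standard error; limma, adjusted p = 1.80e-05), and its second probe had -0.77, under the threshold. Chmp4c, an ESCRT subunit, had a log2 fold change of -0.89. Dysf and Trim72, repair proteins best known from muscle, were not detected on any array.

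The list for phosphatidylserine, the lipid that Anxa5 binds, held 2 called probes of 20, both higher. Over all probes 4.60% were called higher. Among the probes detected on all arrays it was 8.73%, a share near that of the list. Plscr1, a phospholipid scramblase, had a log2 fold change of 1.44 ± 0.146 and Pros1, which bridges phosphatidylserine to phagocyte receptors, one of 0.94 ± 0.117. Without the fold threshold, 8 of the 20 probes were higher and 2 lower with an adjusted p below 0.05, where 26.9% of all probes and 54.0% of those detected on all arrays passed, and 16 of the 20 were detected in at least 1 stage. Copines, another family of calcium-dependent phospholipid binders, had none of 9 probes called by limma, and 5 of the 9 were detected in at least 1 stage. Over all probes 7.75% were called, and over those detected on all arrays 15.1%. Among the copines only a Cpne2 probe, at -0.37, had an adjusted p below 0.05.

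The probes of other genes whose values ran most closely with Anxa8 over the 8 arrays were those of Esm1 (Pearson r = 0.999), Serinc2 (0.997), Chchd10 (0.996), Parp3 (0.996) and Tcn2 (0.996). These arrays form 2 groups, and all 5 genes were higher in the maturation stage, by 1.29 for Esm1 up to 2.67 for Serinc2 on the log2 scale, so that r mostly reflects the stage. Closest to Anxa11 were Pdcd5 (0.982), Jakmip3 (0.952), Or2l5 (0.948), Babam2 (0.929) and Parp8 (0.926), with log2 fold changes between -0.07 and 0.04. These are descriptions of 8 arrays chosen as the extremes of all probes detected on each.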

How the data were processed

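Total RNA of 8 enamel organ samples was measured on RatRef-12 v1 arrays. The authors deposited 1 table with, for each of 22523 probes and each array, the mean bead signal as an intensity without background correction or normalization, a detection p-value, the bead count and the standard error of the bead intensities. Summarising software and genome build are not given in the sources used here, and chromosomes are those of the array annotation. Titles, descriptions and the tissue field gave the stage. Titles and descriptions also gave a replicate number, and equal numbers were taken to mark the same rat. For maturation replicates 2, 3 and 4 the source field instead names secretory-stage tissue, and all 8 arrays correlated best with the stage of their title.

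Signals were processed with limma 3.58.1 in R 4.3.3 (neqc, which inferred the negative controls from detection p-values, offset 16, quantile normalization, log2) and all probes were tested unpaired with lmFit and eBayes. Calls needed at least 1.8-fold and an adjusted p below 0.05, and detection a detection p below 0.05. Summaries and ratios used Python 3.11.15 and pandas 2.3.3. The test was checked on simulated arrays, which did not hold the difference in brightness between the stages and so do not bear on the scaling. The design text says that each rat gave both samples. The deviations of the samples of a rat from their stage means correlated at 0.129 to 0.234, and a fit with the rat as block served as an alternative.

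Other alternatives were the background correction, offset, normalization, detection filter, the Student test of the methods, a stricter adjusted p, array weights and leaving out single arrays. No normalization between arrays, and ratios between members, were added after values were seen. The members and lists were chosen with earlier results of these data known. All annexin probes were named, with called probes of the 6 lists. S100a10 and S100a11 were included whether called or not, with 4 label checks and the 5 probes most like the annexins with the largest and smallest difference. Other genes named in the text from the lists (S100a1, Pdcd6, Fpr1, Fpr3, Fpr-rs3, Plg, Plgrkt, Dysf, Trim72, Cpne2) were chosen after their values were seen. Symbols came from a GRCr8 gene table by gene ID, which matched 17430 probes. The number of arrays limits the precision.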

Additional observations from a re-analysis of the deposited data

How the results depend on the processing

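Anxa1 and Anxa8 were called, and no other annexin probe was, under all 19 alternatives (2 called in each). With the rat as a block no call of an annexin changed, and the adjusted p was 0.000860 for Anxa1, 5.20e-06 for Anxa8, 0.000247 for Anxa6 and 0.00279 for Anxa5. Leaving out 1 array at a time gave log2 fold changes of 1.20 to 1.41 for Anxa1, 2.34 to 2.49 for Anxa8, -0.71 to -0.67 for Anxa6, -0.47 to -0.37 for Anxa5 and -0.051 to 0.060 for Anxa11, 1714 to 1820 called probes in all and 11 to 13 in the lists around the annexins. Without background correction 867 probes in place of 1745 were called, and 7 in place of 12 in the lists. With no normalization between arrays, an alternative chosen after seeing the data, 2600 and 18 were called. The sign turned for Anxa11 under cyclic loess (0.059), median scaling (0.19) and no normalization (0.39, adjusted p = 0.0299 by limma), for Anxa2 under the same settings (0.012, 0.12 and 0.32, the last with an adjusted p of 0.00748), and for Anxa5 with no normalization (0.068). The normalizations differ in how far they take out the greater brightness of the maturation-stage arrays, and the cause of that brightness was not tested.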
